A study of Mus musculus with 4 samples.

Results

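The 36 genes described here mark the S and M phases of the cell cycle: 12 of S phase, when DNA is copied, 23 of mitosis and the G2 phase before it, and Stmn1, which was kept apart from both. They were chosen by symbol from a list, with earlier results of these data known. All 36 were present among the 31053 genes of the deposited matrices. Each of the 36 had UMIs (unique molecular identifiers, which count RNA molecules) in the cells analysed.

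Kidneys of male C57BL/6 mice were dissociated and profiled by droplet single-cell RNA sequencing after ischemia-reperfusion (I/R), in which the renal blood supply is stopped and then restored. The groups were I/R at day 5, at day 14 and at day 28, and I/R at day 5 in mice that had been gavaged for 4 weeks beforehand with 1e9 colony-forming units a day of the probiotic Lactobacillus casei Zhang (Lac.z). All 4 groups carried the injury, and each had 1 library. The sources used here do not give the number of animals in a library or the gavage of mice without Lac.z, and no uninjured kidney was analysed here. With 1 library per group the differences could not be tested against replicate spread, so there are no p-values, and intervals cover counting error only.

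Genes of the S phase supply nucleotides, license replication origins and copy DNA, while mitotic genes drive entry into division, assemble the spindle, hold and separate chromosomes and split the cell. Many S-phase genes are switched on by E2F factors late in G1, and many mitotic genes by the MuvB complex with B-Myb and FoxM1 in G2. After I/R, surviving tubule cells re-enter the cell cycle to replace lost cells, and macrophages recruited to the kidney can also divide there.

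Cells were assigned by marker genes, none of which is a member, to tubule, macrophage, T cell and endothelial classes. These 4 gates held 31558 of 34281 cells, or 92.1%. Macrophages numbered 3680 at day 5, 1533 at day 5 after Lac.z, 777 at day 14 and 440 at day 28, and tubule cells 1574, 4215, 6363 and 10446 in the same order. T cells numbered 415, 257, 659 and 485, and endothelial cells 178, 114, 197 and 225. Each class carried its own markers: the 10 macrophage markers summed to between 29611 and 36976 counts per 1000000 UMIs of the class (CPM) in macrophages and to between 29.6 and 197 CPM in tubule cells. In tubule cells the T cell markers summed to between 1.5 and 4.2 CPM. Proximal tubule markers summed to 28.5, 131, 223 and 429 CPM in macrophages and to 37.0, 106, 232 and 276 CPM in T cells, in the order day 5, Lac.z, day 14 and day 28, lowest at day 5 and highest at day 28 in both. Erythroid markers stood at 523 CPM in day 5 macrophages and at 775 CPM in tubule cells after Lac.z, natural killer cell markers at between 349 and 1201 CPM in T cells, and macrophage markers at 688 CPM in day 5 endothelial cells. The part of these other markers in the results was not tested. The libraries held between 76678882 and 104454319 UMIs. Between 15 and 43 barcode sequences were shared by any 2 libraries.

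Doublets, droplets with more than 1 cell, were removed by their Scrublet score at a fixed rate, which took 478 cells at day 5, 460 after Lac.z, 858 at day 14 and 1762 at day 28. This step took many cells rich in mitotic RNA, and unevenly. Of macrophages with UMIs of 10 or more mitotic genes it took 15 of 152 at day 5, 18 of 120 after Lac.z, 25 of 31 at day 14 and 2 of 6 at day 28. Among such tubule cells it took 9 of 26, 3 of 38, 3 of 9 and 17 of 94, and among such T cells 2 of 29, 2 of 13, 0 of 12 and 9 of 10. Scrublet's own threshold marked only 4, 0, 0 and 0 of the macrophages with 3 or more mitotic genes. The macrophages taken at day 14 had a median of 17050 UMIs against 14507 in those kept with as many mitotic genes, and the tubule cells taken at day 5 had 31150 against 20068. Values below are after removal unless they are said to be before it. Before it, many member values of day 14 macrophages, day 5 tubule cells and day 28 T cells differ, and calls that changed are given with most of the members named. Whether the cells taken were doublets or dividing single cells was not tested.

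The members' promoters are shown because the motifs through which E2F and MuvB complexes act on such genes can be looked for in them. RefSeq promoter windows (GRCm38.p6, from 250 bases before to 50 bases after the start) were matched for 31 of the 36 members, and Tpx2, Ccna2, Aurkb, Mcm4 and Stmn1 were not matched. The windows were searched on both strands for the CCAAT box, the cell cycle genes homology region TTTGAA, and the E2F motifs TTTGGCGC, TTTCGCGC and TTTCCCGC. Of 20 mitotic promoters 18 (90%) held CCAAT and 15 (75%) held TTTGAA, and 15 held both. Of 11 S-phase promoters 9 (81.8%) held CCAAT and 1 (9.09%) TTTGAA. An E2F motif was in 5 of the 11 S-phase promoters (45.5%) and in 1 of the 20 mitotic ones (5%). Among all 27025 promoters of the same length, 37.9% held CCAAT, 18.1% TTTGAA and 1.91% an E2F motif. A match describes letters in the window and is not evidence of binding. Of 93 matches in the members' windows, 1 pair of different motifs overlapped.

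In GENCODE vM21 (GRCm38) exons of 8 members overlap exons of a gene on the opposite strand, among them Prc1 (911 bases with Rccd1) and Cdc20 (53 bases with Elovl1). The sources used here do not say whether counting used strand, so whether reads of such a pair were told apart there is not known. Exons of 3 members overlap exons of a gene on the same strand: Mcm7 (172 bases with Mir25 and Mir93), Top2a (122 with Gm23451) and Stmn1 (66 with Gm23634). Genes the results turn on and that have no such overlap include Ccnb1 (chr13:100778650-100786570, minus strand), Hmmr (chr11:40701395-40733422, minus), Mki67 (chr7:135689784-135716361, minus) and Pcna (chr2:132249162-132253314, minus).

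The next lines give 200 bases of 6 promoters, from 180 before to 20 after the start, 5′ to 3′ on the gene's strand, with matches to any of the 3 motifs in capitals on either strand. The first 3 are mitotic and hold CCAAT and TTTGAA together, and the last 3 are of S phase and hold CCAAT and an E2F motif. Cdk1 holds all 3 motifs. Their places are chr9:70421535-70421734 (Ccnb2, minus strand), chr10:69352893-69353092 (Cdk1, minus), chr11:40733418-40733617 (Hmmr, minus), chr8:75109329-75109528 (Mcm5, plus), chr1:128359686-128359885 (Mcm6, minus) and chr9:65890143-65890342 (Pclaf, plus).
Ccnb2: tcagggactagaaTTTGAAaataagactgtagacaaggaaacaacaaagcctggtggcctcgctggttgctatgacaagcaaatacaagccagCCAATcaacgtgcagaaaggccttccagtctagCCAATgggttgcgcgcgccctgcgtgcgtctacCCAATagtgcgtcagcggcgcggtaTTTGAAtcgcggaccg
Cdk1: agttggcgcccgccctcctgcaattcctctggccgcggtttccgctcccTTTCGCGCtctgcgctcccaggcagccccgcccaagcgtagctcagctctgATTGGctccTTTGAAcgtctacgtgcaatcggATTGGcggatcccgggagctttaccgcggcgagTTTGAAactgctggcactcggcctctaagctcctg
Hmmr: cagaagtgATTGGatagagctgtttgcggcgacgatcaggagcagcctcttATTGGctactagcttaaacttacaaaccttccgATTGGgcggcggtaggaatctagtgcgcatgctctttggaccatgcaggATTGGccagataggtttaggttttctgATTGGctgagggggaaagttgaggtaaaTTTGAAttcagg
Mcm5: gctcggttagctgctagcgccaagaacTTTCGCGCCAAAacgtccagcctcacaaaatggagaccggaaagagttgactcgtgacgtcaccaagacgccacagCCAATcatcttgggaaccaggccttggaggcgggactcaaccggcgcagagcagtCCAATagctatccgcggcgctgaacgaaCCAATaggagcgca
Mcm6: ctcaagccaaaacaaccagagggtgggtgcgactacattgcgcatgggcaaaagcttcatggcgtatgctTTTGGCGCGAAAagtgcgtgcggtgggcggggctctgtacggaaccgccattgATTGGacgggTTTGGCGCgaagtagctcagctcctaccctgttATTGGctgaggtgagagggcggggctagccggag
Pclaf: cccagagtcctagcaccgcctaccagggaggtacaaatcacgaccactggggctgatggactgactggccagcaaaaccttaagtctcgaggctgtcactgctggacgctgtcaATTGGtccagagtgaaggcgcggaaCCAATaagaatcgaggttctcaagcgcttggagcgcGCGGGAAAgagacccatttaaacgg

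In tubule cells the 23 mitotic genes were low at day 14 and, after doublet removal, near their day 5 level at day 28. Their summed level was 127 CPM at day 5, 114 after Lac.z, 17.4 at day 14 and 135 at day 28. Day 14 was the lowest library for 23 of 23 genes, a count that was not made over all genes. The day 14 sum was 0.137 times that of day 5 (95% interval 0.127 to 0.148), and the day 28 sum was 7.76 times that of day 14 (7.26 to 8.31). Both of these directions held before doublet removal, when the sums were 234, 113, 20.5 and 133 CPM and the ratios 0.0876 and 6.48. The day 28 sum was 1.06 times that of day 5 after removal and 0.567 times before it.

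**Figure D1:**
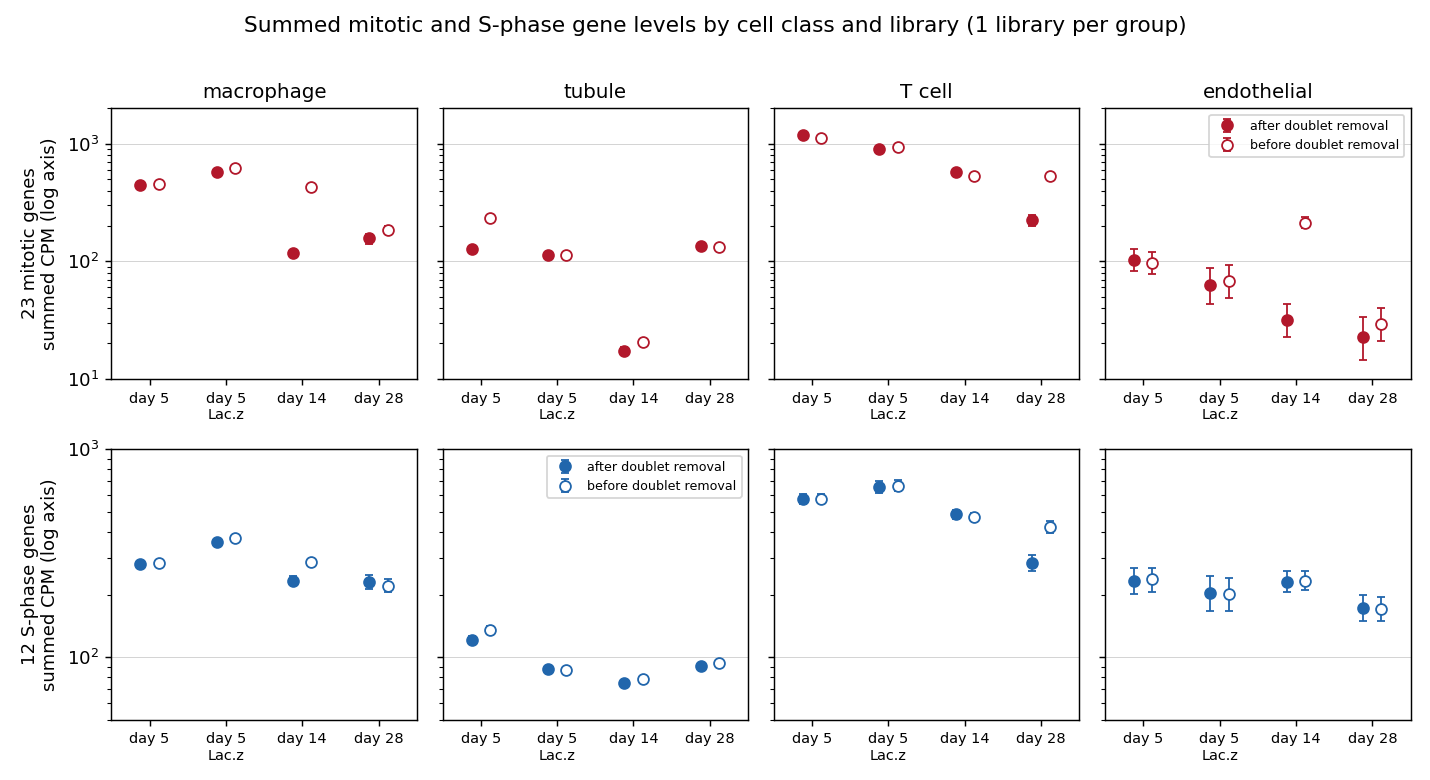
Summed level of the 23 mitotic genes (top) and the 12 S-phase genes (bottom) in CPM on a log axis, by library, in the 4 cell classes; filled points are after and open points before doublet removal, and bars are exact 95% Poisson intervals of the counts. Mitotic genes in tubule cells were at 17.4 CPM at day 14 and at 135 CPM at day 28, while S-phase genes lay between 75.5 and 121 CPM.

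Cyclin-dependent kinase 1 and its B-type cyclins drive entry into mitosis. In tubule cells Cdk1 measured 8.01 CPM at day 5, 5.45 after Lac.z, 0.610 at day 14 and 6.48 at day 28. Ccnb1 measured 2.58, 3.26, 0.0924 and 4.14 CPM, from 39, 127, 5 and 290 UMIs. Ccnb2 measured 5.56, 4.32, 0.665 and 3.51 CPM. All 3 genes were lowest at day 14, and Ccnb1 had the highest day 28 to day 14 ratio of the 36 members, 44.8 (19.0 to 139). Against day 5, Ccnb1 at day 28 was 1.60 times as high (1.15 to 2.30) and Ccnb2 0.632 times. Before doublet removal, day 5 stood higher for each of the 3 (12.4, 5.97 and 9.39 CPM), and no mitotic gene was 1.5-fold higher at day 28 than at day 5. Each of the 3 was then lower after Lac.z than in the other day 5 library, at 5.26, 3.01 and 4.21 CPM, and Cdk1 and Ccnb2 were lower at day 28, at 6.02 and 3.71.

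Genes that build the spindle and release chromosomes were also lowest at day 14. Cdc20, which activates the ligase that starts anaphase, measured 5.89 CPM at day 5, 5.37 after Lac.z, 0.813 at day 14 and 6.54 at day 28. Hmmr, a spindle protein that binds microtubules, measured 9.47, 7.12, 0.351 and 10.7 CPM. At day 14 it was 0.0371 times its day 5 level (0.0217 to 0.0601), the lowest ratio among the members with 50 UMIs or more, and at day 28 it was 30.5 times its day 14 level (19.4 to 50.9). Prc1, which bundles the microtubules of the central spindle, measured 5.36, 6.83, 0.388 and 8.77 CPM. Its day 28 to day 5 ratio of 1.63 (1.29 to 2.09) was the highest of the members, and its ratio after Lac.z, 1.27, was within the 1.5-fold rule. Before removal Prc1 stood at 10.5 CPM at day 5, 6.80 after Lac.z and 8.07 at day 28, lower after Lac.z and within the rule at day 28. Cdc20 then stood at 11.6, 5.14 and 6.21 CPM, lower in both, and Hmmr at 15.4, 6.99 and 10.5 CPM, lower after Lac.z.

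Mki67, which coats mitotic chromosomes and is the usual marker of dividing cells, measured 13.7 CPM at day 5, 13.7 after Lac.z, 0.943 at day 14 and 17.9 at day 28 in tubule cells. Top2a, which untangles sister DNA, measured 7.68, 9.33, 0.573 and 10.4 CPM. Birc5, or survivin, of the chromosomal passenger complex, measured 11.7, 6.71, 0.961 and 8.52 CPM. Day 14 was the low library for each of the 3. Birc5 and Cenpa, the histone of the centromere, were the only mitotic members 1.5-fold lower after Lac.z after removal, with Cenpa at 5.10, 2.93, 0.407 and 3.58 CPM. Before removal Mki67 stood at 27.0 CPM at day 5, 14.6 after Lac.z and 17.5 at day 28, Top2a at 17.5, 9.35 and 10.3, and Birc5 at 19.4, 6.43 and 8.48. By those values all 3 were lower after Lac.z and at day 28 than at day 5.

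Genes that differed by 1.5-fold or more in either direction were called higher or lower, computed with 1 UMI added, among genes with at least 50 UMIs over both libraries. A gene low in 1 library can reach this minimum through the other alone, and this holds for the background genes too. In every class such counts therefore describe only the genes that passed. By this rule 17 of 17 measured mitotic genes were lower at day 14 than at day 5 in tubule cells, against a background of 9.29% of 12602 genes tested, and the other 6 had too few UMIs. At day 28, 23 of 23 were higher than at day 14, against a background of 3.83% of genes. The same 23 were higher before doublet removal (background 4.07%). At day 28 against day 5, 2 of 23 were higher (background 7.21%) and 1 lower (11.6%), while before removal 16 were lower (13.6%). After Lac.z against the other day 5 library, 2 of 21 measured mitotic genes were lower after removal (background 9.67%) and 22 of 22 before it (11.8%). The median log2 ratio of the measured mitotic genes was 3.35 at day 28 against day 14 and 0.17 against day 5, and over all genes tested it was -0.01 in each. The comparisons with day 5 share that library, and the day 5 tubule sum before removal was 234 CPM against 127 after.

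**Figure D2:**
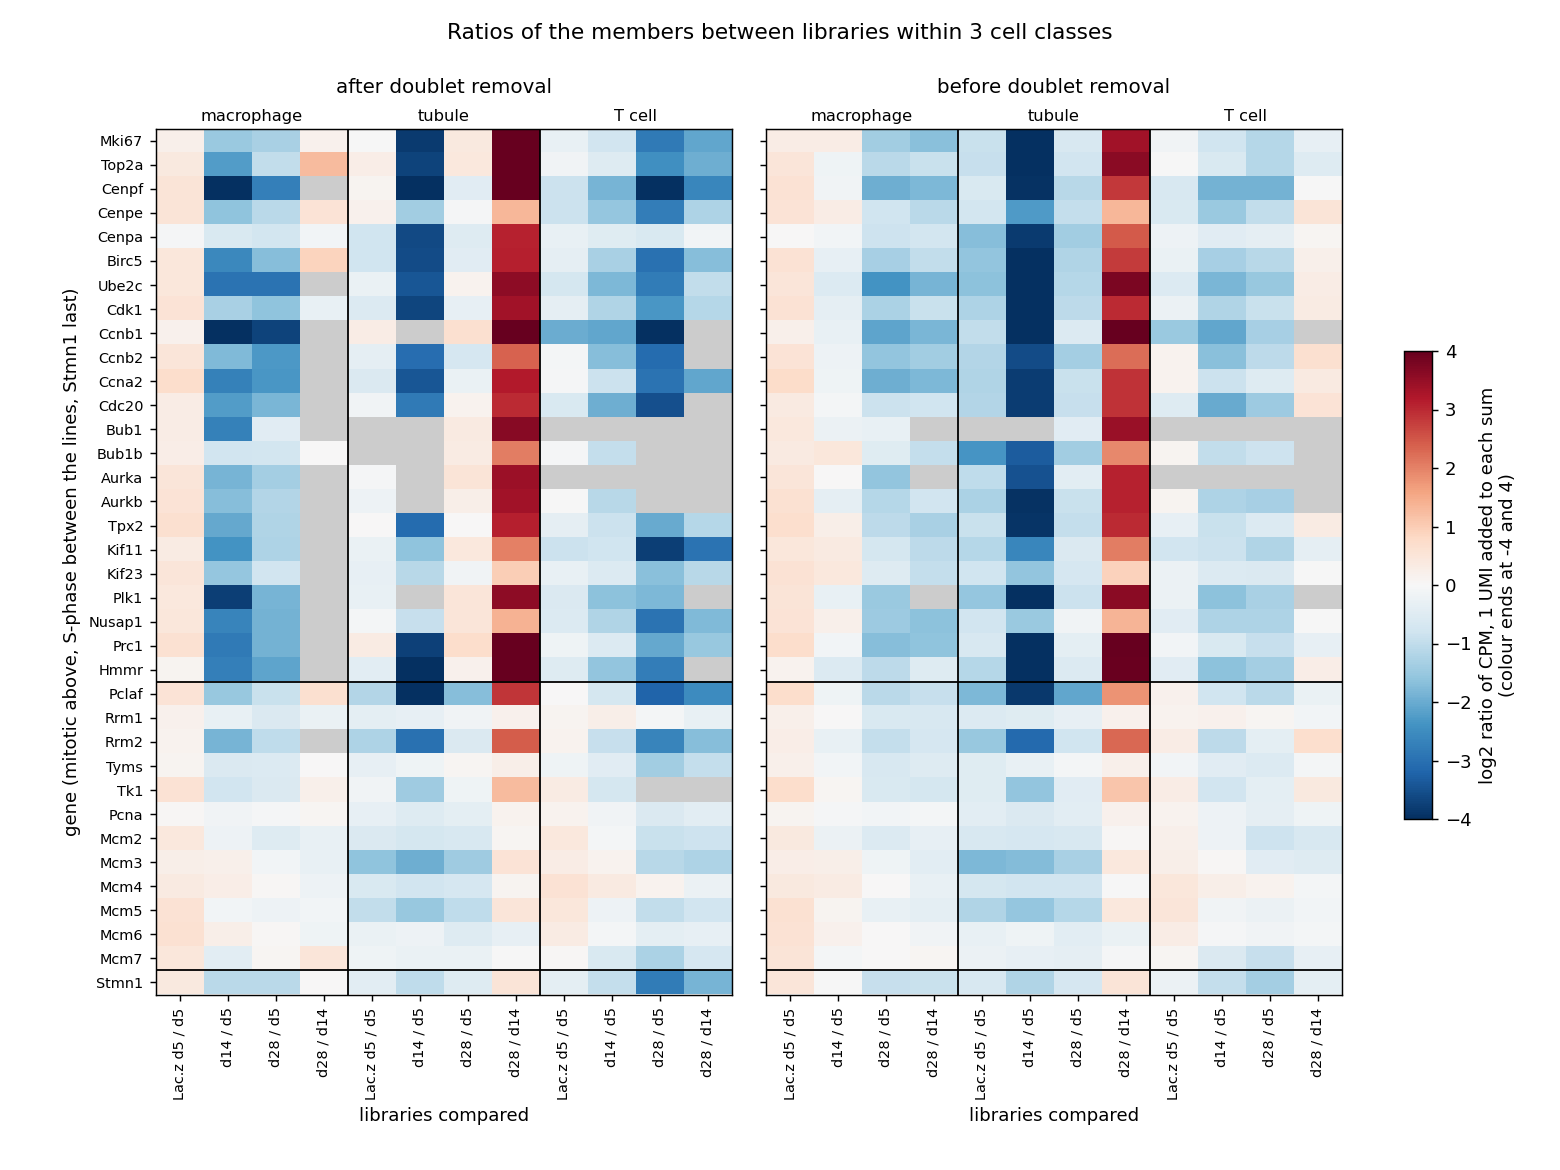
Log2 ratio of CPM with 1 UMI added for the 36 members (side axis) in 3 cell classes and 4 comparisons (lower axis), after (left) and before (right) doublet removal; grey marks members under 50 UMIs over both libraries, and colours end at -4 and 4. The tubule column for day 28 over day 14 is high for 23 of 23 mitotic genes in both panels, and the macrophage column for day 14 over day 5 is low only after removal.

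The S-phase genes of tubule cells moved less and not as a block. Their summed level was 121 CPM at day 5, 87.5 after Lac.z, 75.5 at day 14 and 91.1 at day 28, so day 5 was highest and the other 3 libraries lay close together. Ratios to day 5 were 0.721 after Lac.z, 0.622 at day 14 and 0.751 at day 28, and day 28 stood at 1.21 times day 14. The day 14 ratio was 0.880 with cells thinned to 2000 UMIs, within the rule of 1.5-fold. Day 5 was the highest library for 11 of 12 genes, with no such count over all genes. Before removal the Lac.z ratio was 0.641, past the rule of 1.5-fold.

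The replicative helicase is a ring of Mcm2 to Mcm7 proteins. Mcm5 measured 5.10 CPM at day 5, 2.59 after Lac.z, 1.79 at day 14 and 2.54 at day 28 in tubule cells, and Mcm3 5.30, 1.72, 1.37 and 2.00 CPM. Both were high only at day 5. Mcm6, another subunit of the same ring, differed little, with 13.1, 11, 11.5 and 9.25 CPM. The lowest ratio after Lac.z was that of Mcm3, 0.325 (0.231 to 0.455). Mcm6 and Mcm7 had the lowest ratios of day 28 to day 14, 0.804 and 0.993, and neither passed the rule.

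Pcna, the sliding clamp of DNA polymerase, measured 22.6 CPM at day 5, 18.1 after Lac.z, 15.8 at day 14 and 17.2 at day 28 in tubule cells, within 1.5-fold throughout, and before removal lower at day 14 than at day 5, at 0.665 times. Pclaf, which binds Pcna at replication forks, measured 7.35, 3.24, 0.296 and 2.24 CPM. It followed the mitotic genes at day 14, with a ratio to day 5 of 0.0402 (0.0222 to 0.0683), and at day 28 it stood at 0.305 times day 5 (0.238 to 0.393). Rrm2, the cell cycle-regulated subunit of ribonucleotide reductase, measured 9.27, 3.93, 1.16 and 6.28 CPM, and its Lac.z ratio was 0.424 (0.335 to 0.537). At day 28 Rrm2 was within the rule against day 5, at 0.678 times, and before removal lower, at 0.572. Tk1, the thymidine kinase of the S phase, measured 7.22, 6.55, 2.68 and 6.47 CPM, low at day 14 only. Tyms, which makes thymidylate, differed little, at 17.6, 14.1, 15.7 and 18.7 CPM.

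Of the 12 S-phase genes 7 were lower at day 14 than at day 5 in tubule cells, against a background of 9.29% of genes, and Mcm6 and Tyms had the highest ratios, 0.878 and 0.893. At day 28 against day 14 only Pclaf, Rrm2 and Tk1 were higher, at 7.58, 5.40 and 2.41 times (background 3.83%). Before removal these were again the 3 called (4.07%). At day 28 against day 5 and after Lac.z against day 5, 5 of 12 were lower each (backgrounds 11.6% and 9.67%). Stmn1, or stathmin, which destabilises microtubules, measured 105, 78.3, 52.5 and 74.3 CPM, highest at day 5 and lowest at day 14, with a day 14 ratio of 0.499. Its ratios to day 5 after Lac.z and at day 28, 0.744 and 0.706, were within the rule, and before removal, at 0.635 and 0.626, they were past it.

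Within the tubule class, cells with mitotic genes were counted by gate. Cells gated on proximal tubule markers made up 1375 of the tubule cells at day 5, 3966 after Lac.z, 5586 at day 14 and 9164 at day 28. Of them 21 (1.53%), 51 (1.29%), 8 (0.143%) and 144 (1.57%) had UMIs of 3 or more mitotic genes. Cells gated on injury markers numbered 73, 40, 134 and 46, and 14 (19.2%, interval 10.9 to 30.1), 7 (17.5%), 7 (5.22%) and 0 of them had 3 or more mitotic genes. The 0 of 46 allows a share of up to 6.52%. Injury-gated cells were deeper, with a median of 20887 UMIs at day 5, and after thinning to 2000 UMIs their shares were 5.71%, 2.63%, 1.54% and 0%. The share in proximal cells was thus similar at days 5 and 28. Without thinning, the share in injury-gated cells was higher in both day 5 libraries than at day 14. Thinned, it was highest at day 5, and 2.63% after Lac.z was near 1.54% at day 14.

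Havcr1, or KIM-1, the classical gene of injured proximal tubule, was compared between tubule cells with 3 or more mitotic genes and tubule cells with none. It stood at 906 against 20.6 CPM at day 5, 694 against 36.2 after Lac.z and 82.2 against 32.3 at day 14. At day 28 the cells with 3 or more mitotic genes held 0 Havcr1 UMIs and those with none 1.4 CPM. Lrp2, or megalin, of mature proximal tubule, stood at 212 against 1003 CPM at day 5, 496 against 1014 after Lac.z, 438 against 1074 at day 14 and 878 against 1061 at day 28. Tubule cells with mitotic genes were thus low in Lrp2 at day 5 and near the other tubule cells at day 28. The 10 macrophage markers were no higher in these tubule cells than in those without mitotic genes at day 5 (174 against 200 CPM) and after Lac.z (72.9 against 83.3). At day 14 they stood at 62.6 against 46.2 CPM, and at day 28 at 26.8 against 25.3. Markers of mural cells at day 14 stood at 1221 CPM in the 17 tubule cells with 3 or more mitotic genes, against 4.1 in those with none. Their part in the day 14 values was not tested.

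In macrophages the mitotic genes were highest in the day 5 Lac.z library and lower at day 28. Their sum was 445 CPM at day 5, 579 after Lac.z, 118 at day 14 and 156 at day 28. After Lac.z it was 1.30 times the other day 5 library (1.27 to 1.33), under the rule of 1.5-fold. At day 28 it was 0.351 times day 5 (0.318 to 0.387), and 0.409 times before removal. After removal 1 cell held 107 of the 416 mitotic UMIs of day 28 macrophages, which the interval does not take into account. The day 14 value turned on doublet removal: the sum before it was 431 CPM, 0.956 times day 5, and after it 0.265 times (0.248 to 0.284). Removal took 76.0% of the mitotic UMIs of day 14 macrophages, against 8.39% at day 5, 12.2% after Lac.z and 27.3% at day 28. The median depth of macrophages was 11253 UMIs at day 5, 11117 after Lac.z, 9176 at day 14 and 5442 at day 28. Injured tubule markers, Havcr1 among them, stood at 37.4 CPM in day 5 macrophages with 3 or more mitotic genes against 5.0 in those with none. The values were 8.9 against 8.0 after Lac.z, 9.4 against 19.6 at day 14 and 0 against 29.0 at day 28. The part of these markers in the mitotic values was not tested.

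Among the drivers of mitotic entry, Cdk1 measured 21.6 CPM at day 5, 31.2 after Lac.z, 8.58 at day 14 and 6.77 at day 28 in macrophages, and 16.8 at day 14 before removal. Ccnb1 measured 9.83, 11, 0.264 and 0.376 CPM, the day 14 and day 28 values resting on 2 UMIs and 1 UMI. Its ratios to day 5 were 0.0269 (0.00324 to 0.0976) at day 14 and 0.0382 (0.000966 to 0.214) at day 28, and before removal its day 14 level was 7.88 CPM. Ccnb2 measured 14.8, 20.4, 4.22 and 2.63 CPM, and 13.4 at day 14 before removal. All 3 were lower at day 28 than at day 5 both before and after removal. Ccna2, the cyclin of S and G2 phase, had the highest Lac.z ratio, 1.63 (1.40 to 1.89), from 9.49 to 15.4 CPM.

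For spindle and chromosome genes the day 14 values again parted before and after removal. Mki67 measured 58.0 CPM at day 5, 66.1 after Lac.z, 20.7 at day 14 and 23.3 at day 28 in macrophages, and 70.7 at day 14 before removal. Top2a measured 52.8, 69.0, 11.1 and 26.3 CPM, and 46.9 at day 14 before removal. Birc5 measured 38.2, 52.6, 6.20 and 11.3 CPM, and 31.2 before removal. Day 28 was low for all 3 in both sets. Cdc20 measured 9.34, 11.6, 1.85 and 2.26 CPM, and 8.92 at day 14 before removal. Tpx2, which targets the Aurora A kinase to the spindle, had a Lac.z ratio of 1.55 (1.38 to 1.75). Cenpf, a kinetochore protein, stood at 0.0528 times day 5 at day 14 (0.0227 to 0.104), and at 0.898 times, within the rule, before removal. Ube2c, the ubiquitin-conjugating enzyme of the anaphase ligase, stood at 0.118 times day 5 at day 28 (0.0589 to 0.212) and at 0.181 before removal. Cenpa had the lowest Lac.z ratio, 0.969.

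By the rule of 1.5-fold, 3 of 23 mitotic genes (Ccna2, Tpx2 and Prc1) were higher after Lac.z in macrophages, against a background of 8.17% of genes. Counting these 3, 22 of 23 were above a ratio of 1, and the share of all genes above 1 was not counted. Of 23 measured mitotic genes, 23 were lower at day 14 than at day 5 (background 12.4%), and 0 were before removal (9.18%). At day 28 against day 5, 22 of 23 were lower (background 12.8%) and 20 of 23 before removal (12.5%), with 20 called in both. The median log2 ratio of the 23 at day 28 was -1.60, and after Lac.z 0.45, against 0.00 and 0.04 over all genes tested. Between day 28 and day 14, 2 of 7 measured genes were higher after removal (background 7.55%): Top2a at 2.37 times (1.70 to 3.30) and Birc5 at 1.82 (1.11 to 2.94). Before removal 19 of 20 were lower (background 5.81%), so no direction is read from this comparison.

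S-phase genes of macrophages differed less. Their sum was 281 CPM at day 5, 357 after Lac.z, 234 at day 14 and 230 at day 28. The ratio after Lac.z was 1.27, and the ratios to day 5 were 0.832 at day 14 and 0.819 at day 28. All 12 genes were highest after Lac.z, a count that was not made over all genes. Of 11451 genes tested between the day 5 libraries, 936 were called higher after Lac.z and 335 lower. None of the 4 comparisons of the sum passed the rule, before or after removal, although day 28 stood at 0.585 times day 5 with cells thinned to 2000 UMIs.

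Among the helicase subunits, Mcm5 measured 18.9 CPM at day 5, 28.3 after Lac.z, 17.6 at day 14 and 16.2 at day 28 in macrophages, and Mcm6 27.1, 41.1, 31.5 and 27.4 CPM. The Lac.z library was high and the other 3 were close for both. Mcm4 had the highest ratio of day 14 to day 5, 1.20, followed by Mcm6 at 1.17, and Mcm7 and Mcm4 the highest of day 28 to day 5, 1.04 and 1.02. The lowest ratios of day 28 to day 14 were those of Mcm2, 0.793, and Mcm3, 0.799. Pcna measured 54.0, 55.3, 49.1 and 51.9 CPM, flat across the libraries, with a Lac.z ratio of 1.02.

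The nucleotide and fork genes varied more. Pclaf measured 37.2 CPM at day 5, 54.6 after Lac.z, 12.9 at day 14 and 19.9 at day 28 in macrophages. Rrm2 measured 9.96, 11, 2.64 and 4.51 CPM. Tk1 measured 12.8, 19.2, 7.39 and 8.27 CPM. These 3 were the S-phase genes called lower at day 14, 3 of 12 (background 12.4%), and before removal 0 of 12 were (9.18%), with Pclaf, Rrm2 and Tk1 then at 33.5, 8.11 and 13.4 CPM. Tyms measured 17.1, 18.6, 11.3 and 11.3 CPM, highest in both day 5 libraries. At day 28 against day 5, Pclaf and Rrm2 were lower, 2 of 12 (background 12.8%), and before removal 5 of 12 (12.5%), Tyms and Tk1 among them. After Lac.z, Tk1 and Mcm6 were higher, 2 of 12 (background 8.17%). A count of 2 of 12 is near either background, and nothing is read from it. Stmn1 measured 143, 189, 67.0 and 67.3 CPM, with ratios to day 5 of 1.32, 0.469 and 0.471, and its day 14 level was 142 CPM before removal.

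T cells, the class of adaptive lymphocytes marked by the Cd3 genes, had mitotic genes at 1193 CPM at day 5, 895 after Lac.z, 578 at day 14 and 223 at day 28. The levels thus stood in the order of the days. The ratio to day 5 was 0.751 after Lac.z (0.703 to 0.801), 0.485 at day 14 (0.457 to 0.514) and 0.187 at day 28 (0.168 to 0.209). Before removal the sums were 1122, 934, 532 and 534 CPM, so day 28 stood at 0.476 times day 5 and at 1.00 times day 14. Removal took 68.0% of the mitotic UMIs of day 28 T cells against 4.04% at day 5, 10.8% after Lac.z and 1.07% at day 14. The gate held 485 T cells at day 28, and 1 of them held 121 of their 374 mitotic UMIs, which the interval does not take into account. T cells with 3 or more mitotic genes were compared with those with none. Macrophage markers stood at 181 against 308 CPM at day 5, 62.6 against 74.2 after Lac.z, 130 against 40.6 at day 14 and 15.3 against 26.6 at day 28. Dendritic markers stood at 5.2 against 35.4, 7.0 against 44.2, 123 against 16.9 and 15.3 against 25.7 CPM. Both lists were higher at day 14 alone, and their part in the values was not tested.

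Of the entry genes in T cells, Cdk1 measured 41.7 CPM at day 5, 32.0 after Lac.z, 18.2 at day 14 and 7.76 at day 28. Ccnb1 measured 28.5, 6.67, 6.56 and 1.19 CPM, high at day 5 alone, and had the lowest ratios after Lac.z, 0.234 (0.107 to 0.457), and at day 14, 0.230 (0.135 to 0.377). Ccnb2 measured 39.6, 37.3, 11.9 and 4.18 CPM. Before removal the day 28 levels of Cdk1, Ccnb1 and Ccnb2 were 20.5, 10.0 and 17.3 CPM, each above the day 14 level.

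Mki67 measured 128 CPM at day 5, 103 after Lac.z, 75.5 at day 14 and 17.3 at day 28 in T cells. Top2a measured 151, 137, 106 and 26.9 CPM, and Birc5 89.0, 69.3, 36.4 and 10.7 CPM. Day 28 was low for each, and before removal its values were 55.2, 67.5 and 38.3 CPM. Cdc20 measured 34.1, 22.0, 8.65 and 2.39 CPM, at 0.254 times day 5 at day 14 (0.160 to 0.393). Cenpf, the kinetochore gene, stood at 0.0373 times day 5 at day 28 (0.0120 to 0.0886) and at 0.137 times day 14. Before removal its days 14 and 28 were close, at 19.8 and 19.6 CPM. Cenpe, a kinetochore motor, stood at 0.544 times day 5 after Lac.z (0.354 to 0.816). Kif11, the motor that separates the spindle poles, had the lowest ratio of day 28 to day 14, 0.0984 (0.0198 to 0.302), and before removal it was within the rule, at 16.6 CPM at day 14 and 12.8 at day 28. Cenpa was the mitotic gene that differed least by day 28, with 106, 86.0, 76.1 and 69.9 CPM and 0.918 times day 14.

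Of the measured mitotic genes of T cells, 17 of 21 were lower at day 14 than at day 5 (background 5.84%), and 19 of 19 at day 28 (background 7.16%). Before removal these counts were 19 of 21 (background 6.4%) and 17 of 21 (7.23%), and 17 and 15 genes were called both times. The median log2 ratio was -1.19 at day 14 and -2.80 at day 28 after removal, against 0.00 and 0.02 over all genes tested. At day 28 against day 14, 13 of 14 were lower after removal (background 4.6%) and 0 before it (4.02%). Kif11 passed the minimum there through day 14 alone, with 61 UMIs against 3. After Lac.z, 6 of 21 were lower (background 3.87%): Cenpf, Cenpe, Ube2c, Ccnb1, Cdc20 and Kif11. Of these, Cenpf, Cenpe, Ccnb1 and Kif11 were also called before removal (background 4.08%).

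S-phase genes of T cells summed to 578 CPM at day 5, 659 after Lac.z, 487 at day 14 and 284 at day 28. Day 28 was low, at 0.492 times day 5 and 0.584 times day 14, and these ratios were 0.729 and 0.893 before removal and 0.667 and 0.831 with thinned cells. After Lac.z the ratio was 1.14, and 10 of 12 genes were highest in that library, with no such count over all genes. Mcm5 measured 32.4, 44.7, 28.0 and 16.1 CPM and Mcm6 71.1, 89.3, 67.7 and 53.7 CPM. Mcm4 had the highest Lac.z ratio, 1.49, followed by Mcm5 at 1.38. Mcm4 and Rrm1, the large subunit of ribonucleotide reductase, had the highest ratios to day 5 at day 14 (1.29 and 1.18) and at day 28 (1.10 and 0.949). Against day 14, Mcm4 stood at 0.850 at day 28.

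Pcna in T cells measured 74.1 CPM at day 5, 81.3 after Lac.z, 66.8 at day 14 and 49.6 at day 28, and Pclaf 99.6, 101, 61.8 and 10.2 CPM. Rrm2 measured 40.5, 44.7, 21.2 and 5.97 CPM, Tk1 14.1, 17.3, 8.65 and 4.78 CPM, and Tyms 51.1, 44.7, 37.6 and 19.1 CPM. Each was lowest at day 28, and Pclaf most so. Before removal the day 28 levels of Pclaf and Rrm2 were 46.1 and 30.6 CPM, so Rrm2, and with it Tyms, Tk1 and Mcm5, was within the rule against day 5. Lower S-phase genes numbered 4 of 12 at day 14 (background 5.84%) and 7 of 11 at day 28 (7.16%) against day 5, the latter 3 before removal (7.23%). Stmn1 measured 268, 206, 138 and 37.6 CPM, at 0.140 times day 5 at day 28, and 103 CPM there before removal.

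Endothelial cells, which line the vessels, gave too few UMIs to follow single mitotic genes. The 23 genes together had 89 UMIs at day 5, 34 after Lac.z, 40 at day 14 and 25 at day 28, or 103, 62.8, 31.9 and 22.6 CPM. 1 day 5 cell held 61 of its library's 89 UMIs, and before removal the day 14 level was 213 CPM, so no order of the libraries is read. Ccnb1 and Hmmr had 0 UMIs in all 4 endothelial libraries after removal, and before it each had 8 UMIs at day 14, and 1 and 4 at day 28. S-phase genes summed to 233, 203, 231 and 172 CPM and none of their ratios passed the rule.

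Of the S-phase members in endothelial cells, Pcna measured 38.1 CPM at day 5, 22.2 after Lac.z, 60.6 at day 14 and 39.7 at day 28. At day 14 it was 1.59 times day 5 (1.04 to 2.47), 1 of 4 measured (background 9.5%), and at day 28 0.656 times day 14 (0.442 to 0.963), 1 of 3 (background 5.19%). Before removal the latter was within the rule, at 0.727 times. Tyms measured 52.0, 51.7, 38.3 and 28.0 CPM and was lower at day 28 than at day 5, at 0.539 (0.330 to 0.870), 1 of 3 (background 8.64%). Mcm6 measured 23.1, 25.8, 25.5 and 14.4 CPM, with a day 14 ratio of 1.10. Mcm3 stood at 0.711 times day 5 and 0.790 times day 14 at day 28, and before removal, at 0.606 times day 5, it was lower. Stmn1 measured 53.1, 49.8, 32.7 and 45.1 CPM, at 0.615 times day 5 at day 14 (0.394 to 0.958), and before removal at 1.21 times, within the rule.

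The share of cells with UMIs of 3 or more mitotic genes depends on depth, and whether each such cell was dividing was not tested. Of the 418 such macrophages at day 5, 146 had exactly 3 of the genes and 137 had 10 or more. In macrophages it was 418 of 3680 cells (11.4%, interval 10.4 to 12.4) at day 5, 202 (13.2%, 11.5 to 15) after Lac.z, 37 (4.76%, 3.37 to 6.50) at day 14 and 10 (2.27%, 1.10 to 4.14) at day 28. Thinned to 2000 UMIs a cell these were 4.72%, 7.0%, 0.920% and 0.950%. The later libraries were lower by both measures, and before removal the unthinned day 14 share was 7.28%. In T cells 38 of 415 (9.16%), 28 of 257 (10.9%), 36 of 659 (5.46%) and 8 of 485 (1.65%) passed, or 7.34%, 6.05%, 2.64% and 0.668% thinned. The order of the day 5 libraries differed between the measures, and before removal the day 28 share was 3.38%.

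In tubule cells the same share was 43 of 1574 (2.73%, 1.98 to 3.66) at day 5, 60 of 4215 (1.42%, 1.09 to 1.83) after Lac.z, 17 of 6363 (0.267%) at day 14 and 148 of 10446 (1.42%, 1.20 to 1.66) at day 28. Thinned shares were 1.29%, 0.982%, 0.101% and 1.15%. Day 14 was lowest by both, and the day 28 share was 5.30 times that of day 14 (3.20 to 9.35), or 11.4 times thinned (5.04 to 31.6). Endothelial cells had 2 of 178, 1 of 114, 0 of 197 and 0 of 225, which at days 14 and 28 allows shares of up to 1.52% and 1.33%. The 2 cells at day 5 carried macrophage markers at 5626 CPM and endothelial markers at 4654 CPM. Day 5 endothelial cells with no mitotic gene carried them at 336 and 12811 CPM. Whether the 2 cells were single endothelial cells was not tested.

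As background, neutrophils, which no longer divide, had 0 of 166, 0 of 125, 0 of 77 and 0 of 20 cells with 3 or more mitotic genes, which allows shares of up to 1.81%, 2.40%, 3.90% and 15%. Their median depth was between 2353.5 and 2869 UMIs. Distal convoluted tubule cells had 3 of 24 (12.5%) at day 5 and 0 of 65, 0 of 188 and 0 of 469 in the other libraries, at medians of 6298.5 to 8835 UMIs. The last 3 allow shares of up to 4.62%, 1.60% and 0.640%. These cells are part of the tubule class and carried mitotic genes at day 5, at 845 CPM, so their shares are given as values and not as a level without division.

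**Figure D3:**
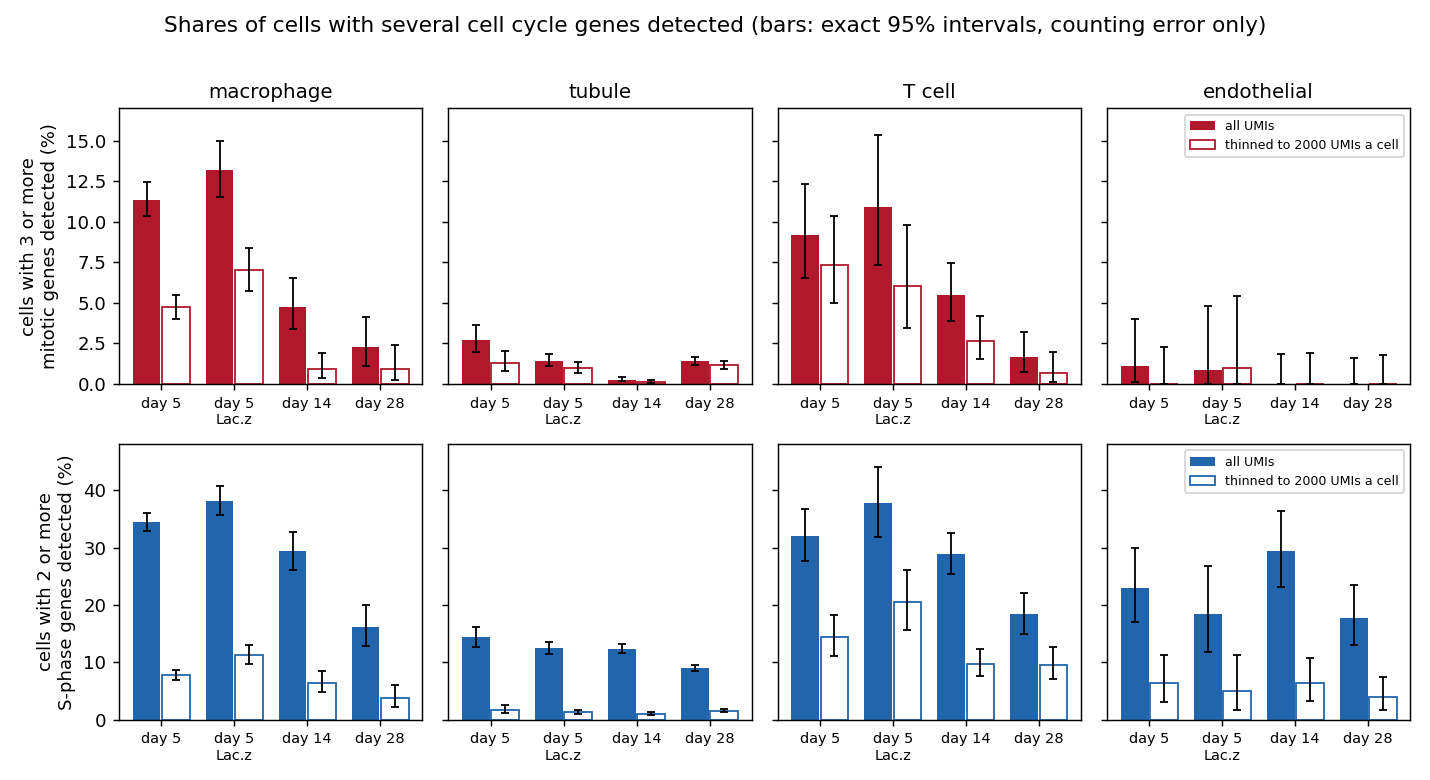
Percent of cells with UMIs of 3 or more mitotic genes and of 2 or more S-phase genes, by cell class and library, with all UMIs (filled) and after thinning each cell to 2000 UMIs (open), with exact 95% intervals as lines. The tubule bar for mitotic genes at day 14 is 0.267% against 1.42% at day 28, while the S-phase bars of the same class stay between 8.98% and 14.4%.

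For S-phase genes the share of cells with 2 or more was 34.4% at day 5, 38.2% after Lac.z, 29.3% at day 14 and 16.1% at day 28 in macrophages, and 14.4%, 12.4%, 12.4% and 8.98% in tubule cells. After thinning these were 7.77%, 11.3%, 6.44% and 3.80% in macrophages and 1.69%, 1.33%, 1.08% and 1.60% in tubule cells. Day 28 was low in tubule cells only before thinning, so no order is read there. In T cells the shares were 32.0%, 37.7%, 28.8% and 18.4%, or 14.4%, 20.6%, 9.77% and 9.58% thinned. Endothelial cells had 23%, 18.4%, 29.4% and 17.8%, or 6.33%, 5.00%, 6.35% and 3.88% thinned. Neutrophils had between 0% and 1.30%. Distal convoluted cells had 25.0%, 7.69%, 8.51% and 10.7%, or 4.17%, 1.72%, 0% and 0.233% thinned.

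The spread of the genes over cells was described by cells with 3 or more mitotic genes. These cells were picked by the mitotic genes themselves, so their share of mitotic UMIs is partly built in. Their mitotic and S-phase shares are therefore not comparable. Cells with 3 or more mitotic genes held 88.8% of the mitotic UMIs of macrophages at day 5, 92.6% after Lac.z, 58.3% at day 14 and 67.3% at day 28. For tubule cells these shares were 86.7%, 87.3%, 28.1% and 86.9%, although such cells held only 1.86% of tubule UMIs at day 28. For T cells they were 92.7%, 89.7%, 80.6% and 47.6%. The same cells held 58.4%, 60.9%, 35.5% and 35.8% of the S-phase UMIs of macrophages and 40.8%, 25.5%, 3.11% and 22.7% of those of tubule cells. In these classes most mitotic UMIs lay in such cells, except in tubule cells at day 14 and T cells at day 28. S-phase UMIs of tubule cells lay mostly outside them in every library.

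Cells with 3 or more mitotic genes also carried more S-phase RNA per UMI. In macrophages S-phase genes stood at 1000 CPM in them against 118 in cells with no mitotic gene at day 5, 1182 against 139 after Lac.z, 1177 against 138 at day 14 and 1719 against 124 at day 28. In tubule cells the values were 847 against 68.5, 878 against 63.5, 497 against 71.5 and 1112 against 69.0 CPM. T cells had 2056 against 225, 1932 against 287, 1878 against 254 and 1344 against 249 CPM. Among the tubule cells with 3 or more mitotic genes, 88.4%, 83.3%, 70.6% and 72.3% had 2 or more S-phase genes. The cells with mitotic genes were deeper, for example 6409.5 against 4755 median UMIs in tubule cells at day 28, and the part of depth in the counts of S-phase genes detected was not tested.

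**Figure D4:**
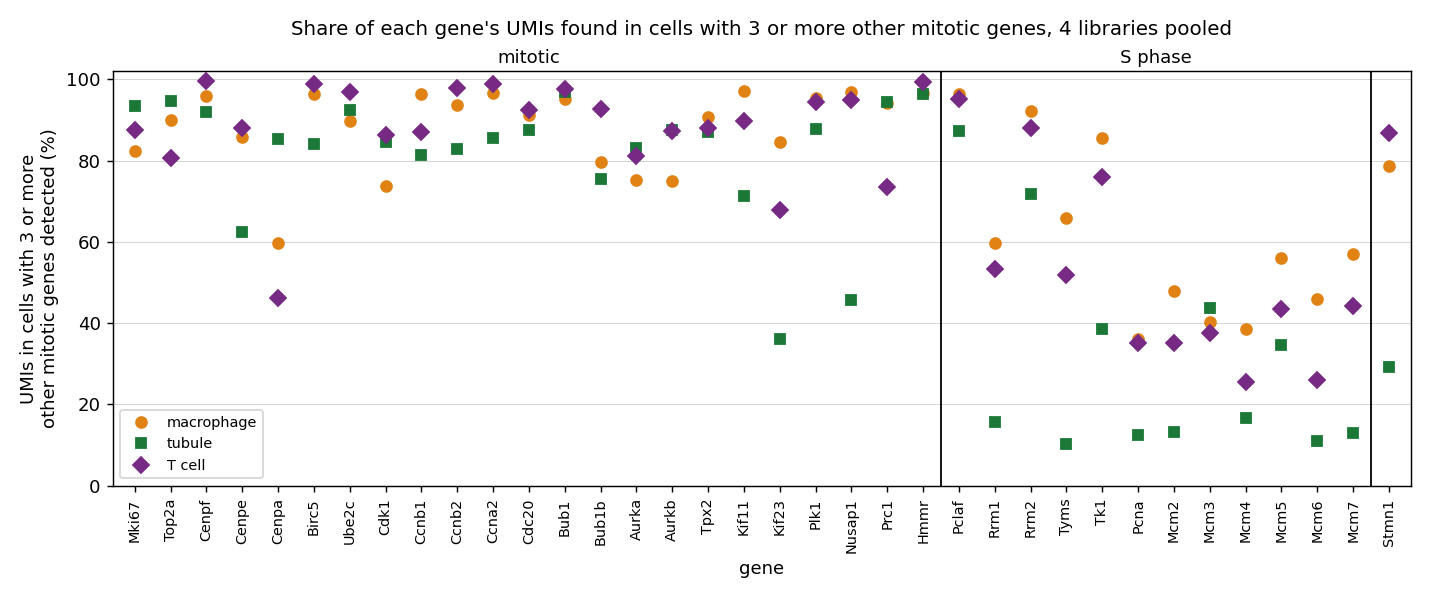
Percent of each member's UMIs, pooled over the 4 libraries, that lay in cells with 3 or more other mitotic genes detected, in tubule cells, macrophages and T cells. Hmmr lies above 96% in all 3 classes, while Pcna lies at 12.5% in tubule cells, 36.2% in macrophages and 35.2% in T cells.

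Genes differed within both groups in this spread. Of Hmmr UMIs, 96.5% lay in cells with 3 or more other mitotic genes in tubule cells, 96.7% in macrophages and 99.3% in T cells. For Cenpa these shares were 85.3%, 59.8% and 46.1%, so in the leukocytes part of its RNA lay outside such cells. Nusap1, which bundles spindle microtubules, and Kif23, the motor of the midbody, had the reverse order, with 45.6% and 36.1% in tubule cells against 96.9% and 84.5% in macrophages and 94.9% and 67.9% in T cells. Nusap1, Kif23 and Cenpe had 202, 137 and 97 UMIs at day 14 in tubule cells, of 943 for all 23 mitotic genes. Their day 14 levels, 3.73, 2.53 and 1.79 CPM, were the nearest of the 23 to their day 5 levels of 7.08, 5.50 and 4.63 CPM.

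Of the S-phase genes Pclaf was the most concentrated, with 87.3% of its UMIs in such cells in tubule cells, 96.3% in macrophages and 95.2% in T cells. Rrm2 had 71.7%, 92.3% and 88.1%, and Tk1 38.5%, 85.5% and 76.0%. Tyms had 10.2%, 65.8% and 51.9%, Mcm6 11%, 46.0% and 26.1%, and Mcm5 34.7%, 56.0% and 43.6%. Pclaf and Rrm2 RNA thus lay mostly with the mitotic genes in all 3 classes. For Tk1 this held in macrophages and T cells, and in tubule cells Mcm3, at 43.8%, stood above it. Stmn1 had 29.2% in tubule cells, 78.6% in macrophages and 86.8% in T cells.

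Other genes of the pathway, 55 mitotic, 38 of S phase and 12 of G1, that are not members were counted in the same way. In tubule cells 37 of 50 measured other mitotic genes and 10 of 33 other S-phase genes were higher at day 28 than at day 14, against a background of 3.83%, and 0 of 12 G1 genes were. At day 14 against day 5, 25 of 34 and 17 of 29 were lower (background 9.29%). The summed levels of the other mitotic genes differed less than those of the members, at 1.26 times at day 28 against day 14 and 0.756 times at day 14 against day 5. In macrophages 36 of 55 other mitotic genes and 10 of 37 other S-phase genes were lower at day 28 than at day 5, and 17 of 55 and 9 of 38 were higher after Lac.z (backgrounds 12.8% and 8.17%). In T cells 18 of 23 and 11 of 17 were lower at day 28 than at day 5 (background 7.16%). Of the G1 genes, Ccnd1, cyclin D1, stood at 468 CPM in tubule cells with 3 or more mitotic genes against 172 in those with none at day 5, 277 against 235 after Lac.z, 442 against 126 at day 14 and 88.1 against 178 at day 28. It was thus above the other tubule cells in 3 libraries and below them at day 28. The 12 G1 genes together did not share the day 28 value. In the same order they stood at 927 against 388, 661 against 461, 884 against 341 and 372 against 364 CPM.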

How the data were processed

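Droplet single-cell RNA sequencing of 4 kidney libraries, 1 per group, was analysed. The deposited values were counts of UMIs per gene and barcode, whole and without normalisation, per the file headers and their range. Reads had been assigned on build mm10, per the submitters' processing notes. Per the file headers, day 5 matrices came from software version 3.0.2 and the later ones from 3.1.0, so version and time cannot be told apart. The sources used here give neither the aligner nor the annotation. The members and lists were chosen with earlier results of these data known.

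Kept barcodes had 200 or more genes and no more than 50% mitochondrial UMIs, which left 7086, 7043, 9572 and 14138 at day 5, at day 5 after Lac.z, at day 14 and at day 28. Scrublet (scanpy 1.11.5, Python 3.11.15) removed the highest scores at 0.8% per 1000 barcodes and left 6608, 6583, 8714 and 12376 cells. A cell joined the class with the highest share of its markers detected, with at least 3 markers and a lead of 0.2 over other classes. Macrophages also needed 2 of C1qa, C1qb and C1qc, and T cells 1 of Cd3d, Cd3e and Cd3g. Tubule cells took the highest of 6 sublists.

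UMIs were summed per class and library and scaled to 1000000 (CPM). Sums carry exact Poisson, ratios exact conditional binomial and shares exact Clopper-Pearson 95% intervals (scipy 1.17.1). A count of 0 allows up to 3 counts. Cells are not replicates, so a 1.5-fold rule of size stood in for a test. On simulated data with 200 of 11353 genes changed 2-fold between the day 5 macrophage libraries, it called 100% of those and 1.32% of the others. A 2-fold change lies well past the rule, and these libraries held the most macrophage UMIs. The simulation therefore gives no error rate for other classes, later libraries or smaller changes.

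Values in every library are given for Mki67, Top2a, Cdk1, Ccnb1, Ccnb2, Birc5, Cdc20, Pcna, Mcm5, Mcm6, Rrm2, Tyms, Tk1, Pclaf and Stmn1 in macrophages and, with at least 50 UMIs over the 4 libraries, in the other classes. In each class and comparison the 2 highest and 2 lowest measured ratios are also named. Further members and Havcr1, Lrp2, Ccnd1 and marker lists were chosen after their values were seen. Alternatives were no doublet removal, Scrublet's own threshold, a stricter gate, a 25% mitochondrial limit, thinning to 2000 UMIs, equal weight per cell, other scalings, no shared barcodes and other minimums.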

Additional observations from a re-analysis of the deposited data

Results flagged for a closer look

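The ratio of day 28 to day 14 for the summed mitotic genes pointed in opposite directions in 2 classes: it was 7.76 in tubule cells and 0.386 in T cells. With 1 library per group the difference between the classes was not tested. Before doublet removal the tubule ratio was 6.48 and the T cell ratio 1.00.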

How the results depend on the processing

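No paired analysis was possible because each group had 1 library, and no replicate could be left out. All 16 ratios of the summed mitotic genes, and all 16 of the S-phase genes, kept their call with a mitochondrial limit of 25%, without mitochondrially encoded genes in the scaling, with median-of-ratios size factors and without barcodes found in several libraries. Without doublet removal, and with Scrublet's own threshold (added after the data were seen), the mitotic ratios were 0.956 and 0.949 for macrophages at day 14 against day 5, 0.428 and 0.428 at day 28 against day 14, 0.482 and 0.480 for tubule cells after Lac.z, and 0.567 and 0.572 at day 28 against day 5. They were 1.00 and 1.01 for T cells at day 28 against day 14, 2.19 and 2.16 for endothelial cells at day 14 against day 5 and 0.138 and 0.137 at day 28 against day 14, and without removal 0.702 after Lac.z. S-phase ratios were 0.641 and 0.640 for tubule cells after Lac.z, 0.729 and 0.689 for T cells at day 28 against day 5, and 0.893 and 0.822 against day 14. With a gate of 4 markers and a lead of 0.3 the endothelial mitotic ratios to day 5 were 1.93 after Lac.z, 0.906 at day 14 and 0.717 at day 28. Thinning to 2000 UMIs gave 1.16 and 0.669 for endothelial mitotic genes after Lac.z and at day 14. It gave S-phase ratios of 0.585 for macrophages at day 28 and 0.880 for tubule cells at day 14 against day 5, and for T cells at day 28 0.667 against day 5 and 0.831 against day 14. Weighting cells equally gave 0.906 for endothelial mitotic genes after Lac.z, 0.858 for tubule S-phase genes at day 14 and 0.759 for T cell S-phase genes at day 28 against day 14. Causes were not tested. A minimum of 20 UMIs in place of 50 moved 10 of 64 counts of members, and 200 UMIs moved 16. Endothelial mitotic genes, at 25 to 89 UMIs a library, were too few to order the libraries.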

Other observations

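Dendritic cells, gated on markers such as Flt3 and Zbtb46, had the mitotic genes at 1155 CPM at day 5, 1049 after Lac.z, 298 at day 14 and 430 at day 28. Of them 10 of 49 (20.4%), 11 of 31 (35.5%), 5 of 63 (7.94%) and 4 of 39 (10.3%) had UMIs of 3 or more mitotic genes, or 14.3%, 16.1%, 3.17% and 2.56% thinned to 2000 UMIs. The day 5 libraries were high by both measures, from 31 to 63 cells a library. B cells had 0 of 47, 1 of 17, 0 of 62 and 0 of 46 such cells, and the counts of 0 allow shares of up to 6.38%, 4.84% and 6.52%. Cells that passed no gate had 38 of 439 (8.66%), 14 of 273 (5.13%), 13 of 457 (2.84%) and 15 of 609 (2.46%).

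Of tubule cells with a Havcr1 UMI, 14 of 116 (12.1%) had 3 or more mitotic genes at day 5, 13 of 299 (4.35%) after Lac.z, 3 of 327 (0.917%) at day 14 and 0 of 44 at day 28, which allows a share of up to 6.82%. Ccnd1, cyclin D1 of the G1 phase, measured 126 CPM at day 5, 219 after Lac.z, 128 at day 14 and 200 CPM at day 28 in macrophages. Its ratio after Lac.z was 1.74 and its day 28 ratio to day 5 was 1.59, so it stood high in the day 28 library, where the mitotic genes stood low. The 12 G1 genes as a list did not follow it. At day 28 against day 5, 6 were above a ratio of 1 and 6 below, and after Lac.z 7 were above and 5 below.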
